A study of Homo sapiens with 6 samples.

Results

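The genes examined here were 10 splicing regulators that set epithelial or mesenchymal exon use, namely ESRP1, ESRP2, RBFOX2, QKI, PTBP1, PTBP3, MBNL1, MBNL2, MBNL3 and KHDRBS1. They were taken by gene symbol from a list drawn up with earlier results of these data known, and all 10 were found among the 28491 genes of the deposited count table. HCT116 cells, a human colorectal carcinoma line, were transfected either with a control plasmid (NC) or with a plasmid that carries the RBM47 transcript (RBM47-OE), and poly(A) RNA was sequenced 48 h later in 3 libraries of each group. Both groups carried a plasmid delivered by Lipofectamine, and the backbone of the control plasmid is not given in the sources used here. The sample labels name a Flag-tagged RBM47 construct in another vector than the one the study's methods name, and the methods and labels also differ in medium and library kit. The labels do not say whether the 3 libraries of a group came from separate cultures, so the p-values measure only the spread between these libraries, which may be technical.

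An epithelial cell that passes through the epithelial-mesenchymal transition (EMT) changes which exons it keeps as well as which genes it transcribes. ESRP1 and ESRP2 are RNA-binding proteins restricted to epithelial cells that promote epithelial exons in transcripts such as FGFR2, CD44, ENAH and CTNND1. RBFOX2 and QKI favour exons of the mesenchymal forms of many of the same transcripts. PTBP1 and its relative PTBP3 bind pyrimidine-rich sequences and mostly repress exons, the MBNL proteins promote or repress exons depending on where they bind, and KHDRBS1 (also known as Sam68) links signalling kinases to exon choice in CD44. The present data are read counts per gene, so they give the abundance of each regulator's transcripts and not the exons that these transcripts or their targets contain.

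Between 26792409 and 35477983 reads were counted on genes in each library. RBM47 itself stood at 1.91, 2.33 and 1.94 FPKM under NC (fragments scaled to gene length and to the mapped total) against 131.3, 130.4 and 127.0 with the RBM47 plasmid. In bulk RNA, a larger share of cells that took up the plasmid and more RNA in each such cell cannot be told apart, and the same holds for every change below. Among 10 epithelial markers, KRT19 (971.7 ± 44.6 FPKM in NC, SD, n = 3), KRT8 and EPCAM were abundant, whereas the intestinal genes VIL1 and CDX1 lay at 0.063 and 0.017 FPKM in NC. The summed FPKM of the 4 mesenchymal markers measured was 1.78 to 2.08 in NC and 1.83 to 2.04 in RBM47-OE. Fibroblast markers summed to 1.34 to 1.78 FPKM over all libraries, leukocyte markers to 0.19 to 0.43 and endothelial markers to 0.11 to 0.20. The libraries also differed in how gene levels followed GC content, the percentage of G and C bases in a gene's exons. Spearman's rho across 16229 genes between GC content and the log2 difference from NC reached -0.41, -0.59 and -0.67 in replicates 1, 2 and 3 of RBM47-OE, against -0.16 to 0.13 for each NC library set against the other NC libraries. This trend lies between the groups, so its part in a change and the part of RBM47 cannot be told apart. Each regulator is therefore given both from the main fit and from a second fit that removes the trend of each library with GC content (the GC offset).

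RBM47 overexpression came with small changes in most of the 10 regulators. In edgeR's quasi-likelihood test, MBNL2, MBNL1, PTBP3, RBFOX2 and ESRP1 were higher in RBM47-OE and ESRP2 and PTBP1 were lower at a Benjamini-Hochberg adjusted p-value under 0.05, and MBNL3, QKI and KHDRBS1 did not pass. Thus 5 of the 10 rose and 2 fell, where 19.1% of the 16260 genes tested were called higher and 16.9% were called lower. In 7 of the 10 the groups of libraries did not overlap in normalised counts, nor in FPKM, which was the case for 46.5% of the genes tested and, in FPKM, for 42.7% of the genes with a mean of at least 0.1. The median log2 fold change was 0.20 over the 10 regulators and 4.0e-05 over all genes tested. The regulators had a median GC content of 42.3%, against 49.0% over all genes tested. In the GC bin of all tested genes with a median of 42.5%, the median log2 fold change was 0.22. The study called a gene at p under 0.01, unadjusted, with a fold over 1.5. No regulator met both limits in edgeR, where all 7 called regulators had an unadjusted p-value under 0.01, and 1.51% of genes tested met both as higher and 0.873% as lower.

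Under the offset, 1 regulator was called higher and 1 lower. MBNL2 kept its rise at a smaller size, QKI was called lower, and none of the other 8 passed. Over all genes tested, 6% were called higher and 8.46% lower in that fit. The groups did not overlap in 5 regulators after the offset (RBFOX2, MBNL1 and MBNL2 higher, QKI and KHDRBS1 lower), against 31.9% of all genes tested. The median log2 fold change of the 10 regulators was then -0.04.

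**Figure D1:**
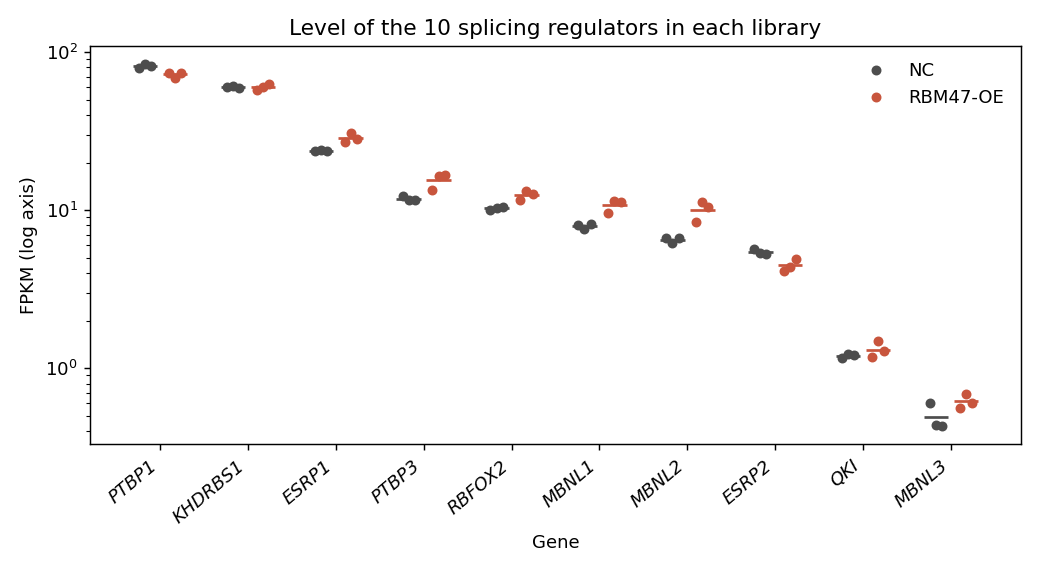
FPKM of each regulator (log axis) in the 3 NC and the 3 RBM47-OE libraries, ordered by the NC mean. Points are libraries and lines are group means. PTBP1 and KHDRBS1 stand highest, QKI and MBNL3 lowest, and the shifts between groups are small beside the differences between genes.

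In the NC libraries the regulators spanned a wide range of levels per length. PTBP1 was the most abundant at 81.9 ± 2.21 FPKM (SD, n = 3) and KHDRBS1 followed at 60.1 ± 0.587. ESRP1 stood at 23.8 ± 0.256 FPKM, PTBP3 at 11.8 ± 0.483, RBFOX2 at 10.3 ± 0.207, MBNL1 at 7.95 ± 0.273, MBNL2 at 6.51 ± 0.248 and ESRP2 at 5.42 ± 0.214. QKI at 1.20 ± 0.0379 FPKM and MBNL3 at 0.49 ± 0.0954 were the least abundant. In this order no NC library of a gene overlapped with an NC library of its neighbour. FPKM gave ESRP1 81.5% of the ESRP family in NC, and counts per length of all exons gave 81.4%. The order and the family shares below thus rest on all annotated exons. For MBNL1 these span 9989 bases, against 1146 coding bases and 3414 after them in its canonical transcript. For MBNL2 they span 5201, against 1173 and 2671. Another choice of length can change the order of genes with close levels. Epithelial and mesenchymal regulators were thus measured side by side in these cells, with ESRP1 above RBFOX2 and RBFOX2 above QKI.

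ESRP1 (ENSG00000104413, GRCh38 chromosome 8 from 94641074 to 94707466, plus strand) is the main epithelial splicing factor of the set. Replicates 1, 2 and 3 of NC gave 23.62, 24.09 and 23.68 FPKM, those of RBM47-OE 26.88, 30.58 and 28.21. Each RBM47-OE library exceeded each NC library. On the counts the log2 fold change came to 0.19 (SE, the standard error, 0.069, edgeR adjusted p = 0.031), a rise of 14.1%. After GC adjustment, it was 0.04 (SE 0.054, edgeR adjusted p = 0.68) and the groups overlapped. The call was also lost with an offset for gene length (edgeR adjusted p = 0.051) and without NC replicate 1, 2 or 3 or RBM47-OE replicate 2 (edgeR adjusted p = 0.12, 0.11, 0.13 and 0.0997).

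ESRP2 (ENSG00000103067, chromosome 16 from 68229033 to 68238102, minus strand), the second epithelial factor, moved the other way. NC gave 5.66, 5.33 and 5.26 FPKM, RBM47-OE 4.15, 4.39 and 4.93, so that every RBM47-OE library lay below every NC library. edgeR put the log2 fold change at -0.34 (SE 0.089, edgeR adjusted p = 0.0039), and its exonic GC content of 56.9% was above that of 75.8% of the genes tested. With the GC offset the value was -0.16 (SE 0.083, edgeR adjusted p = 0.20), with RBM47-OE replicate 3 at 31.5 offset-adjusted CPM (counts scaled to library size) within the NC range of 29.7 to 32.5. In that fit ESRP2 was called lower without RBM47-OE replicate 3, at -0.27 (edgeR adjusted p = 0.022), and stood at -0.09 without RBM47-OE replicate 1 (edgeR adjusted p = 0.54). Exons of ESRP2 share 227 bases with NFATC3 on the opposite strand and 113 with a long noncoding RNA gene on the same strand, and the strand setting of the counting is not given in the sources used here.

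As a share of the summed FPKM of both ESRP genes, ESRP1 made up 80.7%, 81.9% and 81.8% in NC and 86.6%, 87.4% and 85.1% in RBM47-OE. The mean share rose by 4.94 percentage points, from 81.5 ± 0.684 to 86.4 ± 1.18 (SD, n = 3), with no overlap between groups. The balance between the epithelial pair therefore moved further towards ESRP1, the member with the lower GC content of 43.9%. With offset-adjusted CPM divided by exonic length in place of FPKM, the share rose by 1.86 points and the groups overlapped.

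RBFOX2 (ENSG00000100320, chromosome 22 from 35738736 to 36028824, minus strand), which recognises a short GCAUG motif next to exons, measured 10.05, 10.31 and 10.46 FPKM across the NC libraries, then 11.61, 13.27 and 12.60 under RBM47-OE. No libraries of the groups overlapped. edgeR put the log2 fold change at 0.21 (SE 0.069, edgeR adjusted p = 0.019), a rise of 15.6%. Under the offset, it was 0.08 (SE 0.053, edgeR adjusted p = 0.35), although all 3 RBM47-OE libraries still lay above all 3 NC libraries. An offset for length gave 0.09 (edgeR adjusted p = 0.36), and the call was lost without NC replicate 1, 2 or 3 or RBM47-OE replicate 2 (edgeR adjusted p = 0.10, 0.092, 0.067 and 0.064). RBFOX2 has long exonic sequence, 12348 bases, above 91.9% of the genes tested. Its paralogs were close to absent, with at most 3 counts on RBFOX1 and at most 6 on RBFOX3 in any library, so RBFOX2 held at least 99.8% of the family's FPKM in every library.

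QKI (ENSG00000112531, chromosome 6 from 163414000 to 163578590, plus strand), a KH-domain protein that binds ACUAA-type elements, measured 1.16, 1.23 and 1.22 FPKM across the NC libraries, then 1.17, 1.49 and 1.28 under RBM47-OE, and the groups overlapped. edgeR put the log2 fold change at 0.05 (SE 0.093, edgeR adjusted p = 0.70), and without RBM47-OE replicate 2 it was -0.03. Its exonic GC content of 38.2% was above that of only 7.44% of the genes tested, within the lowest of 10 GC bins, where all genes had a median log2 fold change of 0.38. The GC offset turned the value to -0.28 (SE 0.078, edgeR adjusted p = 0.020), with 25.8, 28.3 and 27.7 offset-adjusted CPM in NC and 22.8, 24.0 and 20.7 in RBM47-OE, and no overlap. In that fit the call was lost without NC replicate 2 or 3 or RBM47-OE replicate 3 (edgeR adjusted p = 0.12, 0.077 and 0.074).

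Of the 10, KHDRBS1 (ENSG00000121774, chromosome 1 from 32013868 to 32060850, plus strand) and QKI had the smallest log2 fold changes without the offset. KHDRBS1 measured 60.15, 60.66 and 59.49 FPKM across the NC libraries, then 57.34, 59.75 and 62.53 under RBM47-OE, with overlapping groups. edgeR put the log2 fold change at -0.08 (SE 0.068, edgeR adjusted p = 0.41), and -0.12 with the GC offset (SE 0.055, edgeR adjusted p = 0.17). Its paralog KHDRBS3, at 1.32 ± 0.0436 FPKM in NC and 1.23 ± 0.106 in RBM47-OE (SD, n = 3), had a log2 fold change of -0.17 (SE 0.11, edgeR adjusted p = 0.24). After GC adjustment, KHDRBS3 was called lower, at -0.43 (SE 0.10, edgeR adjusted p = 0.0072). KHDRBS1 held 97.8% to 98.2% of the FPKM of both genes in all 6 libraries, with overlapping groups. With offset-adjusted CPM per exonic length its mean share was 97.7% in NC and 98.1% in RBM47-OE, without overlap, and KHDRBS2 was not analysed here.

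The PTBP pair moved in opposite directions. PTBP1 (ENSG00000011304, chromosome 19 from 797075 to 812327, plus strand), the abundant repressor, measured 79.57, 83.98 and 82.08 FPKM across the NC libraries, then 74.24, 68.53 and 74.08 under RBM47-OE. PTBP3 (ENSG00000119314, chromosome 9 from 112217720 to 112333660, minus strand), its less studied relative, measured 12.37, 11.56 and 11.51 FPKM across the NC libraries, then 13.37, 16.35 and 16.61 under RBM47-OE. In both genes the groups did not overlap.

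Their canonical proteins share 413 identical aligned residues, 74.3% of the longer one, yet the genes lie near opposite ends of the GC scale, at 60.03% for PTBP1 and 37.5% for PTBP3. The longest run of coding bases that both genes share is 17, and no run of the 150-base read length is shared.

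PTBP1 fell by 0.25 in log2 units (SE 0.073, edgeR adjusted p = 0.0092), a value lost as a call without NC replicate 2 (edgeR adjusted p = 0.076). PTBP3 rose by 0.31 (SE 0.077, edgeR adjusted p = 0.0026), and its call held with each library left out. With the GC offset both values were near 0, at -0.05 for PTBP1 (SE 0.062, edgeR adjusted p = 0.69) and -0.03 for PTBP3 (SE 0.053, edgeR adjusted p = 0.75), and both genes' groups overlapped. PTBP2, the neuronal paralog, was scarce at 0.33 ± 0.02 FPKM in NC and 0.47 ± 0.0208 in RBM47-OE (SD, n = 3). edgeR put its log2 fold change at 0.43 (SE 0.13, edgeR adjusted p = 0.013) and 0.08 with the GC offset (edgeR adjusted p = 0.75), at an exonic GC content of 34.5%. Its call was lost without NC replicate 2 (edgeR adjusted p = 0.073). All 3 PTBP genes were thus called without the offset and none with it.

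The FPKM ratio of PTBP1 to PTBP3 was 6.43, 7.26 and 7.13 in NC and 5.55, 4.19 and 4.46 in RBM47-OE. The share of PTBP3 in the family's FPKM rose from 12.6 ± 0.726 to 17.5 ± 2.08 (SD, n = 3), by 4.95 percentage points, with no overlap. With offset-adjusted CPM per exonic length the rise was 0.14 points.

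**Figure D2:**
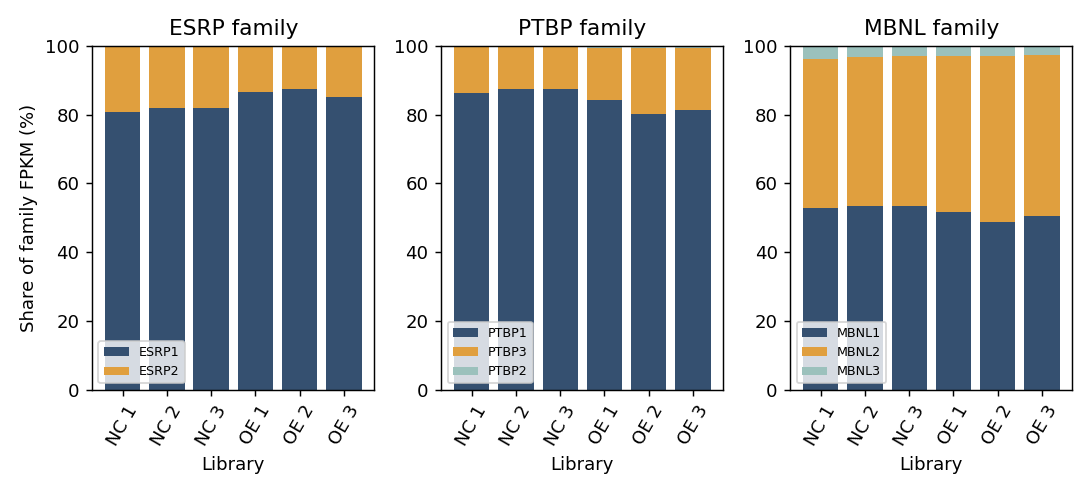
Share of each paralog in the summed FPKM of its family (percent) in the 6 libraries, for the ESRP, PTBP and MBNL families. Stacked bars start at 0. ESRP1, PTBP3 and MBNL2 take a larger share in each RBM47-OE library than in any NC library.

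The MBNL proteins bind through pairs of zinc fingers to clusters of short GC-containing elements in U-rich sequence. All 3 genes have a low GC content, of 40.6%, 38.0% and 37.6% for MBNL1, MBNL2 and MBNL3. Their proteins share 57.7% to 66.7% of aligned residues, relative to the longer of each pair. To show how far the transcripts differ where the proteins do not, the window of 10 residues that all 3 proteins share within 1 exon, and whose bases differ most, is printed in coding direction (GENCODE 44 on GRCh38), for residues 77 to 86 of MBNL1 at chr3:152414995-152415024, plus strand, 77 to 86 of MBNL2 at chr13:97334330-97334359, plus strand, and 78 to 87 of MBNL3 at chrX:132406309-132406338, minus strand. Capitals mark the 11 positions of 30 at which the genes are not all alike.
MBNL1: acGcaGTtGgaGatAaatggACgCaaTaaC
MBNL2: acTcaACtAgaAatTaatggAAgGaaCaaT
MBNL3: acGcaGCtGgaGatTaatggGCgGaaCaaT
MBNL2 has 9 G or C bases in this window, against 13 in MBNL1 and 15 in MBNL3, although MBNL3 has the lowest GC content over all exons. The longest coding run that any 2 of the genes share is 20 bases.

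MBNL2 (ENSG00000139793, chromosome 13 from 97221434 to 97394120, plus strand) showed the largest change of the 10 without the GC offset, whereas with it the value of QKI was larger in size. It measured 6.62, 6.23 and 6.69 FPKM across the NC libraries, then 8.36, 11.29 and 10.51 under RBM47-OE, without overlap. edgeR put the log2 fold change at 0.55 (SE 0.088, edgeR adjusted p = 7.9e-05), a rise of 46.5%, and it lay between 0.48 and 0.66 with each library left out. Under the offset, it was 0.21 (SE 0.063, edgeR adjusted p = 0.027), with 41.8, 40.4 and 42.9 offset-adjusted CPM in NC and 45.8, 51.2 and 47.9 in RBM47-OE. The groups still did not overlap in that fit, but the call was lost without NC replicate 1, 2 or 3 or RBM47-OE replicate 2 (edgeR adjusted p = 0.092, 0.15, 0.057 and 0.10).

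MBNL1 (ENSG00000152601, chromosome 3 from 152243830 to 152465780, plus strand) measured 8.08, 7.64 and 8.14 FPKM across the NC libraries, then 9.58, 11.37 and 11.29 under RBM47-OE, again without overlap. edgeR put its log2 fold change at 0.36 (SE 0.073, edgeR adjusted p = 5.8e-04), and it kept its call with each library left out. The GC offset brought it to 0.09 (SE 0.053, edgeR adjusted p = 0.27), with all 3 RBM47-OE libraries still above the NC libraries. An antisense gene, MBNL1-AS1, shares 1175 exonic bases with MBNL1 and had 13 to 30 counts per library, against 2473 to 3934 on MBNL1. The strand setting of the counting is not given in the sources used here, so these counts do not show how many reads the overlap affected.

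MBNL3 (ENSG00000076770, chromosome X from 132369320 to 132489970, minus strand) had the fewest reads, 184 to 308 per library. It measured 0.60, 0.44 and 0.43 FPKM across the NC libraries, then 0.56, 0.69 and 0.60 under RBM47-OE, so NC replicate 1 lay among the RBM47-OE libraries. edgeR put the log2 fold change at 0.27 (SE 0.14, edgeR adjusted p = 0.14), and 0.44 without NC replicate 1 (edgeR adjusted p = 0.029). After GC adjustment, it was -0.07 (SE 0.13, edgeR adjusted p = 0.79).

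Within the MBNL family, MBNL2 gained on MBNL1. Its share of the summed FPKM was 43.5 ± 0.286 in NC and 46.8 ± 1.58 in RBM47-OE (SD, n = 3), and that of MBNL1 fell by 2.89 percentage points. The ratio of MBNL1 to MBNL2 was 1.22, 1.23 and 1.22 in NC and 1.15, 1.01 and 1.07 in RBM47-OE. In contrast to the ESRP and PTBP families, the shift was still seen with offset-adjusted CPM per exonic length, where the share of MBNL2 rose by 2.17 points and the groups did not overlap.

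**Figure D3:**
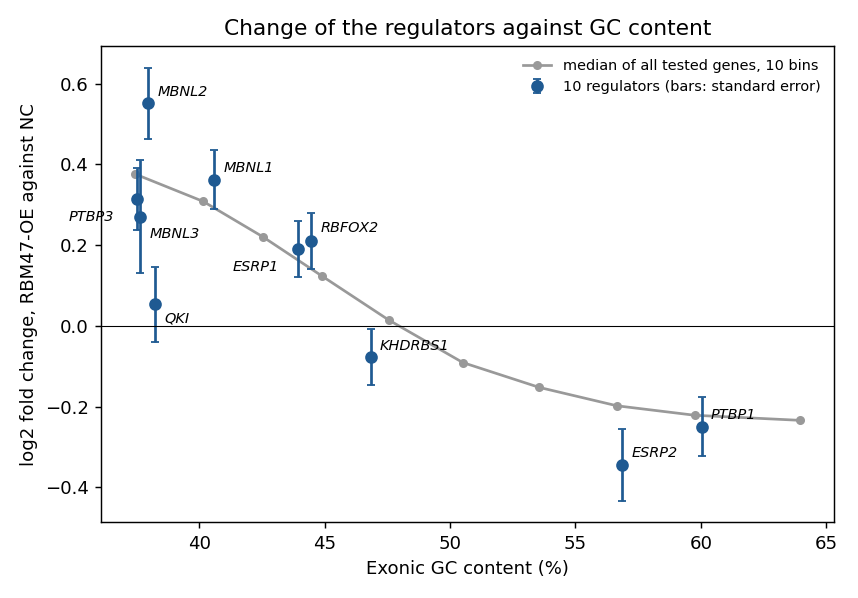
Log2 fold change of each regulator in RBM47-OE against NC, by exonic GC content (percent), with standard errors (SE). The grey line joins the median log2 fold change of all tested genes in 10 bins of GC content, from 0.38 in the lowest bin to -0.23 in the highest. Most regulators lie near the line, MBNL2 lies above it and QKI below it.

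The direction of the 7 called changes followed base composition. The 5 regulators called higher had a GC content of 37.5% to 44.5%, and ESRP2 and PTBP1, called lower, had 56.9% and 60.03%, where the median of the genes tested was 49.0%. Over the 10 regulators, Spearman's rho between GC content and the log2 fold change was -0.78, and over 16229 genes it was -0.63. Genes share the same 6 libraries and are not independent replicates, so these are descriptions. Epithelial ESRP1 and mesenchymal RBFOX2 were both called higher. Both lost the call without NC replicate 1, 2 or 3 or RBM47-OE replicate 2. QKI and MBNL3, at a GC content of 38.2% and 37.6%, were not called. What set this pattern was not tested.

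**Figure D4:**
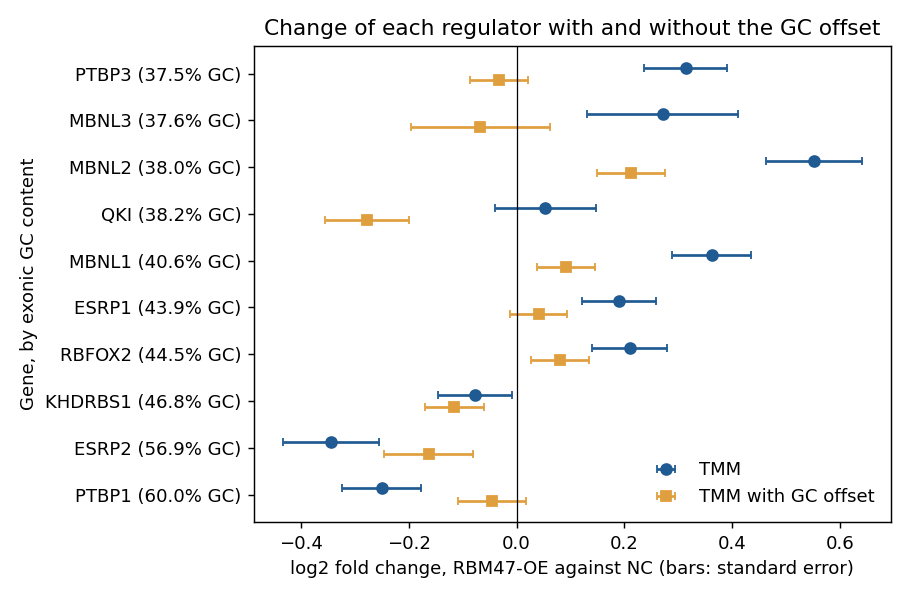
Log2 fold change with standard error for each regulator, ordered by exonic GC content, from the TMM fit (circles) and with the GC offset (squares). With the offset, 8 of the 10 values move closer to 0, among them PTBP3 and MBNL3, which cross it to -0.03 and -0.07. QKI crosses 0 to -0.28, and KHDRBS1 moves from -0.08 to -0.12.

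The RBM47-OE libraries differed among themselves. In all 5 regulators called higher, and in PTBP1, replicate 1 was the RBM47-OE library closest to NC, whereas in ESRP2 it was replicate 3, with differences of -0.42, -0.41 and -0.20 on the log2 scale in replicates 1, 2 and 3. For MBNL2 replicates 1, 2 and 3 differed from the NC mean by 0.32, 0.69 and 0.62 on the log2 scale, and for PTBP3 by 0.14, 0.36 and 0.42. With the GC offset these became 0.14, 0.29 and 0.20 for MBNL2 and -0.05, -0.04 and -0.01 for PTBP3. The spread between RBM47-OE libraries narrowed with it for 8 regulators, for example from a standard deviation of 14.2 to 1.84 CPM for PTBP3 and from 9.09 to 0.658 CPM for MBNL1. It widened for PTBP1, from 40.03 to 47.9 CPM, and for ESRP2, from 2.27 to 3.56 CPM.

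**Figure D5:**
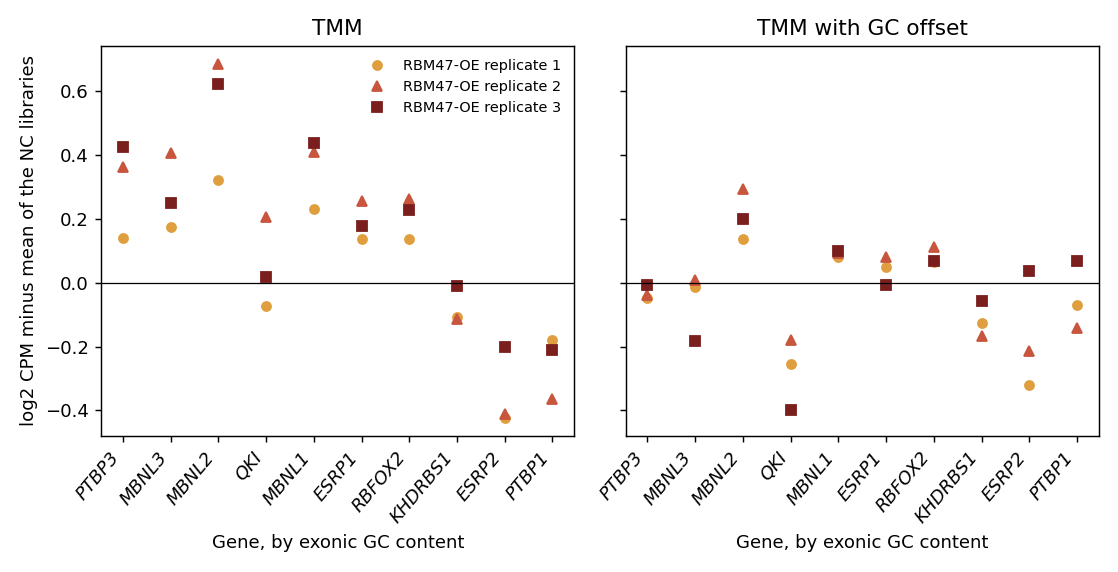
Log2 CPM of each RBM47-OE library minus the mean of the NC libraries, for the regulators ordered by exonic GC content, without (left) and with the GC offset (right). Without the offset, replicate 1 lies nearest to 0 for the genes called higher, and with it the replicates of PTBP3 and MBNL1 lie close together.

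Other splicing regulators tied to EMT were followed as a list. Of 14 tested, 2 were higher, 2 were lower and 10 did not pass, where 19.1% of all genes were higher and 16.9% lower. ZMAT3, a p53-induced RNA-binding protein, rose by 0.42 in log2 units (SE 0.086, edgeR adjusted p = 6.8e-04), and SRSF1, a serine/arginine-rich exon activator, rose by 0.31 (edgeR adjusted p = 0.0072). RBM38 fell by 0.39 (SE 0.081, edgeR adjusted p = 6.9e-04), and PCBP1, a poly(C)-binding protein, fell by 0.26 (edgeR adjusted p = 0.0069). SRSF1 lost its call without RBM47-OE replicate 3 (edgeR adjusted p = 0.073) and PCBP1 without NC replicate 2 (edgeR adjusted p = 0.051). None of these 4 was called with the GC offset, where 6% of all genes were higher and 8.46% lower. There, SRSF3 was lower at -0.42 (edgeR adjusted p = 1.1e-04) and HNRNPA1 at -0.20 (edgeR adjusted p = 0.043). HNRNPA1 has processed pseudogenes, and whether reads were lost to them was not tested. The call of HNRNPA1 was lost without NC replicate 1, 2 or 3 or RBM47-OE replicate 2 or 3 (edgeR adjusted p = 0.16, 0.23, 0.13, 0.074 and 0.073). The median log2 fold change of this list was 0.02, close to that of all genes.

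The transcripts whose exons these regulators set were tested at gene level only. Of 25 genes, 8 were higher, 3 were lower and 14 did not pass, with a median of 0.12, against 19.1% higher and 16.9% lower among all genes. Their median GC content was 43.3%, against 49.0% over all genes tested. EPB41L5, a cytoskeletal adaptor needed in EMT, rose by 0.53 (SE 0.10, edgeR adjusted p = 4.8e-04), the kinase gene SLK by 0.51 (edgeR adjusted p = 4.9e-05) and CD46 by 0.42 (edgeR adjusted p = 1.1e-04). SCRIB, a polarity gene, fell by 0.35 (edgeR adjusted p = 4.6e-04), PKM, the pyruvate kinase gene whose exon choice PTBP1 governs, by 0.26 (edgeR adjusted p = 0.014), and EXOC7 by 0.21 (edgeR adjusted p = 0.020). PKM lost its call without NC replicate 1, 2 or 3 or RBM47-OE replicate 3 (edgeR adjusted p = 0.055, 0.066, 0.072 and 0.054), and EXOC7 without NC replicate 1, 2 or 3 or RBM47-OE replicate 2 (edgeR adjusted p = 0.095, 0.065, 0.10 and 0.066). Under the offset, 5 genes were higher and none of the 25 lower, against 6% and 8.46% of all genes, and the median of the 25 was -0.025. EPB41L5 at 0.32 (edgeR adjusted p = 0.019) and SLK at 0.23 (edgeR adjusted p = 0.0078) were among the 5, although EPB41L5 lost that call without NC replicate 2 (edgeR adjusted p = 0.15) and SLK without NC replicate 3 (edgeR adjusted p = 0.070). The others were MAGI1, NFYA and INSR, at 0.21, 0.20 and 0.20 (edgeR adjusted p = 0.017, 0.040 and 0.035). Each of these lost that call without NC replicate 1, 2 or 3. So did MAGI1 and INSR without RBM47-OE replicate 2, INSR without RBM47-OE replicate 3 and NFYA without RBM47-OE replicate 1. CD46, SCRIB, PKM and EXOC7 were not called with the offset, with CD46 at 0.07 (edgeR adjusted p = 0.47). CD44, at 44.4 FPKM in NC, had a log2 fold change of 0.03 (edgeR adjusted p = 0.76), and FGFR2 one of 0.04 (edgeR adjusted p = 0.79). With the offset CD44 was at -0.18 (edgeR adjusted p = 0.057) and FGFR2 at -0.02 (edgeR adjusted p = 0.93). All RBM47-OE libraries of CD44 lay below all NC libraries after the offset, but above them in FPKM, so its direction depended on the measure.

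Among 10 tested transcription factors of the epithelial or mesenchymal state, EHF was higher and SNAI1 lower, where 19.1% of all genes were higher and 16.9% lower. Both calls held with the GC offset, where 6% of all genes were higher and 8.46% lower. SNAI1, a repressor of epithelial genes that drives EMT, had 7.37 FPKM in NC and 4.43 in RBM47-OE on average. edgeR put its log2 fold change at -0.81 (SE 0.11, edgeR adjusted p = 3.2e-05) and -0.62 with the GC offset (edgeR adjusted p = 4.4e-04). EHF, an epithelial ETS factor, rose by 0.51 (SE 0.082, edgeR adjusted p = 8.8e-05), and by 0.26 with the offset (edgeR adjusted p = 0.0054), a call lost without NC replicate 2 (edgeR adjusted p = 0.073). ZEB1, a known repressor of ESRP1, was scarce at 0.24 FPKM in NC and had a log2 fold change of 0.42 (edgeR adjusted p = 0.17). With the offset it was at 0.15 (edgeR adjusted p = 0.71). ZEB1 rested on 56 to 119 counts per library, and without the offset RBM47-OE replicates 1, 2 and 3 differed from the NC mean by -0.33, 0.62 and 0.76.

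Of 9 epithelial markers tested, EPCAM was higher, at 0.26 (edgeR adjusted p = 0.0070) and at 0.27 with the GC offset (edgeR adjusted p = 0.0054), and both calls were lost without NC replicate 2 (edgeR adjusted p = 0.059 and 0.058). KRT18, KRT8 and CLDN7 were lower, at -0.36, -0.27 and -0.26 (edgeR adjusted p = 0.0011, 0.012 and 0.0095), and were not called with the offset. Among all genes 19.1% were higher and 16.9% lower, and 6% and 8.46% with the offset. KRT8 lost its call without NC replicate 2 or 3 (edgeR adjusted p = 0.064 and 0.080), and CLDN7 without NC replicate 3 or RBM47-OE replicate 2 (edgeR adjusted p = 0.072 and 0.071). None of the 3 mesenchymal markers tested passed, where VIM had a log2 fold change of -0.06 (edgeR adjusted p = 0.85) and FN1 one of -0.01 (edgeR adjusted p = 0.96). Of the markers of other cell types, CD68 was lower at -1.10 (edgeR adjusted p = 0.033), at 0.31 FPKM in NC and 0.15 in RBM47-OE, and was not called with the offset. It rested on 7 to 30 counts per library, and its call was lost without NC replicate 1, 2 or 3 or RBM47-OE replicate 2 or 3 (edgeR adjusted p = 0.074, 0.13, 0.061, 0.15 and 0.077).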

How the data were processed

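RNA-seq of 3 NC and 3 RBM47-OE libraries was used. Reads had been trimmed and mapped on GRCh38 by HISAT2. From uniquely mapped reads the authors derived raw counts per gene, the deposited values tested here, and FPKM, also deposited by the authors and used here for levels. The counting tool and annotation release are not given in the sources used here. GC content, length and position came from GENCODE 44 on GRCh38, matched by gene identifier for 28401 genes of the 28491, and 82.9% of all identifiers had the same version there. Overlaps and coding windows came from the same annotation.

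Counts were tested with edgeR 4.0.16 in R 4.3.3 (filterByExpr, minimum count 10, TMM, quasi-likelihood, condition as the only term, Benjamini-Hochberg over all genes tested). Each standard error equals |log2 fold change| over √F. The GC offset was a loess curve (span 0.3) per library. Alternatives were RLE factors, library totals, length offset, 2 other count filters, DESeq2 1.42.0, limma 3.58.1 on log2(FPKM + 1) and log2(FPKM + 0.1), the replicate block, and each library left out. The GC offset with a library left out, and offset-adjusted shares, were added after seeing the data. The methods were also run on simulated counts with a fixed dispersion, with and without an added GC trend. That setting cannot show how well the GC offset suits these libraries. All 10 regulators and their paralogs were named, and from each other list up to 3 called genes per direction with the largest change. CD44, FGFR2, MAGI1, NFYA, INSR, ZEB1, KRT19, VIL1, CDX1, VIM, FN1, SRSF3 and HNRNPA1 were named beyond that rule, after their values were seen. Members and lists were chosen with earlier results of these data known.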

Additional observations from a re-analysis of the deposited data

How the results depend on the processing

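The 5 regulators called higher and 2 called lower became 1 and 1 with the GC offset, alone or together with the replicate number as a block. Among all genes 6% were higher and 8.46% lower with that offset alone, and 6.3% and 8.79% with the block added. With the length offset 3 were higher, where 16.1% of all genes were. With each library left out, the count of higher regulators lay between 3 and 5 (3 without NC replicate 2, NC replicate 3 or RBM47-OE replicate 2) and that of lower ones between 1 and 2 (1 without NC replicate 2). With the GC offset and a library left out, 0 to 1 were higher and 0 to 1 lower, the lower one being ESRP2 without RBM47-OE replicate 3 and QKI otherwise. The shares of all genes called in those fits are not reported here. At the study's thresholds 1 regulator, MBNL2, passed with library totals, with limma on log2(FPKM + 0.1) and without RBM47-OE replicate 1, against 0 otherwise. In the main fit 1.51% of all genes met these thresholds as higher and 0.873% as lower. The shares in the settings where MBNL2 passed are not reported here. Values that changed sign were those of QKI (-0.28 with the GC offset with or without the block, -0.10 with the length offset, and -0.028 to 0.12 with each library left out), PTBP3 (-0.032 with the GC offset with or without the block) and MBNL3 (-0.067 and -0.060). With the GC offset and NC replicates 1, 2 and 3 and then RBM47-OE replicates 1, 2 and 3 left out, the value was -0.31, -0.25, -0.27, -0.29, -0.33 and -0.22 for QKI, -0.0087, -0.039, -0.048, -0.026, -0.030 and -0.044 for PTBP3, and 0.09, -0.14, -0.15, -0.091, -0.10 and -0.0095 for MBNL3. Shifts in family share, in percentage points, moved beyond 1 SD with offset-adjusted CPM per length, to 1.86 for ESRP1, -1.86 for ESRP2, -0.17 for PTBP1, 0.026 for PTBP2, 0.14 for PTBP3, -1.71 for MBNL1, 0.44 for KHDRBS1 and -0.44 for KHDRBS3, and with counts per length to 0.13 for PTBP2. The causes were not tested.

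The replicate block as the only change gave 3 higher and 2 lower regulators (18.2% and 15.4% of all genes), with ESRP1 and RBFOX2 at an edgeR adjusted p of 0.085 and 0.054. The labels share numbers, and same-numbered libraries had correlations of -0.06, -0.01 and -0.02 between their deviations from the group means. These values showed no pairing. With 3 libraries per group they cannot show that same-numbered samples share nothing beyond the number.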
